A study of Homo sapiens with 6 samples.

Results

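The respiratory chain was followed here through 59 genes that encode subunits of its complexes: the 13 mRNAs of the mitochondrial genome and 46 nuclear genes. These genes were listed by name, with earlier results of these data known. They are 59 of the 78653 genes in the deposited tables. By complex, 7 mitochondrial and 14 nuclear members belong to complex I, 4 nuclear members to complex II, 1 mitochondrial and 7 nuclear to complex III, 3 and 10 to complex IV, and 2 and 11 to complex V. The cells were THP-1, a human monocytic leukaemia line, carrying a stably integrated vector, either empty (EV) or for PTX4 overexpression (PTX4-OE), under the same stated culture and library protocols. The promoter that drives PTX4 is not stated. PTX4 encodes pentraxin 4, a secreted pattern recognition protein. Each construct had 3 biological replicates, numbered 1 to 3 in both, from RNA selected with oligo(dT) beads. The labels do not say how many transduced clones or cultures lie behind the replicates, nor what a replicate number shares between constructs. Total expected counts ran from 29670641 to 37718207 per library.

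The respiratory chain sits in the inner mitochondrial membrane. Complexes I and II pass electrons from NADH and succinate to ubiquinone, complex III passes them on to cytochrome c, and complex IV passes them to oxygen. The proton gradient built by complexes I, III and IV drives complex V, the ATP synthase. Every complex except complex II is a mosaic of subunits made from mitochondrial and nuclear genes, so transcripts of both genomes have to be supplied. The mitochondrial genome is transcribed from both strands as long precursors, which are cut into mRNAs, rRNAs and tRNAs. Most of the mRNAs are given short poly(A) tails.

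Before the values, the counting of the mitochondrial mRNAs needs a look at their sequence. Neighbouring genes share bases, and nuclear copies are close in sequence. MT-ATP8 and MT-ATP6, complex V subunits, are read from 1 transcript and overlap by 46 bases, and MT-ND4L and MT-ND4, complex I subunits, overlap by 7. The stretches below, from the GRCh38 reference, plus strand, chrM:8507-8592 and chrM:10740-10786, give the shared bases in capitals with 20 flanking bases on each side. Reads over the capitals belong to both genes of a pair.
Overlap of MT-ATP8 and MT-ATP6: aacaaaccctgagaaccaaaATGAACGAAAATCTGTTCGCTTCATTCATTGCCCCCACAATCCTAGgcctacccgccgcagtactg
Overlap of MT-ND4L and MT-ND4: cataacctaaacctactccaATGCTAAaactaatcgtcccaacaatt

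The nuclear genome holds copies of mitochondrial DNA. MTND2P28 (chromosome 1, 629640 to 630683, GRCh38, unprocessed pseudogene) differed from MT-ND2 at 17 of 1042 compared bases, an identity of 98.4%, with a longest identical run of 266 bases. MTATP6P1 (chromosome 1, 633696 to 634376) differed from MT-ATP6 at 10 of 681 bases (98.5%). The windows of 60 bases with the most differences between MT-ND2 and its copy, chrM:4899-4958 and chr1:630069-630128, plus strand, are printed with the 4 differing bases in capitals.
MT-ND2: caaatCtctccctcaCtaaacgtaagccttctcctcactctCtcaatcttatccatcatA
MTND2P28: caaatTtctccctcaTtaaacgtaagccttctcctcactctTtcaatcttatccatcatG

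Counts were also given to these nuclear copies. Whether their reads came from mitochondrial RNA or from the copies was not tested. The MTND2P28 count equalled 15.5% to 17.3% of the MT-ND2 count over the 6 libraries. For MTATP6P1 it was 3.25% to 4.81% of the MT-ATP6 count. For MTCO1P12 it was 0.180% to 0.230% of the MT-CO1 count. Of 404 mitochondrial pseudogene rows, the other 401 held at most 19 counts in any library. MT-ND2, MT-CO1 and MT-ATP6 were the MT mRNAs with fractional counts in every library, and 12 nuclear members had a fractional count in at least 1. The levels of these 15 members are therefore uncertain. The MTND2P28 count relative to that of MT-ND2 moved little between libraries, compared with the changes described below.

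The labels were checked first. PTX4 stood at 0, 0.11 and 0.13 deposited TPM (transcript abundance scaled for length and depth) in the EV libraries and at 702, 475 and 444 in the PTX4-OE libraries, each in the order of replicates 1, 2 and 3, as in all such series of values here. All 10 myeloid markers reached 1 TPM, with a summed level of 632 to 721 TPM in EV and 593 to 755 in PTX4-OE. Single myeloid markers moved with both comparisons: with the block CSF1R, the receptor of a macrophage growth factor, was lower in PTX4-OE by a log2 fold change of -0.30 (SE 0.056, edgeR adjusted p = 0.0385), and FCER1G, an Fc receptor chain, was lower without overlap of the constructs (-0.79 without the block, edgeR adjusted p = 1.00). In the test of replicate numbers 5 of the 10 were called, near the 51.6% of all genes called. All 5 were lower in number 3, among them LYZ (lysozyme) by -1.38 and CD68 by -0.55, beside 27.4% of all genes called lower. Their part in the results below was not tested. Of the T cell, erythroid, epithelial, fibroblast and endothelial markers, 25 in all, 0 reached 1 TPM. Of 5 B cell markers 1 did, and their sum was 3.21 to 4.68 TPM in EV and 4.58 to 5.20 in PTX4-OE.

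Transcripts of the mitochondrial genome were abundant. The 13 MT mRNAs took 4.29%, 5.31% and 4.79% of all counts in EV replicates 1, 2 and 3 and 2.51%, 4.83% and 4.35% in PTX4-OE replicates 1, 2 and 3. The 46 nuclear members took 0.806%, 0.759% and 0.647% in EV and 0.846%, 0.753% and 0.631% in PTX4-OE. PTX4-OE replicate 1 was thus the lowest library for the mitochondrial set and the highest for the nuclear set. Replicate 3 was the lowest of its construct for the nuclear set in both constructs. In bulk RNA, fewer cells carrying a transcript and less transcript per cell cannot be told apart.

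**Figure D1:**
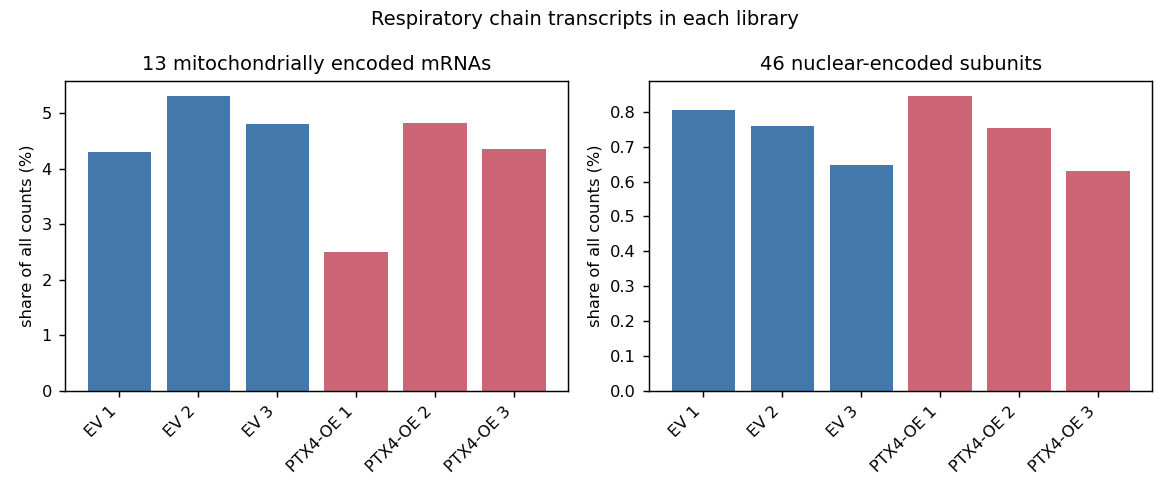
Share of all expected counts (%, bars from 0) taken by the 13 mitochondrially encoded mRNAs (left) and by the 46 nuclear-encoded subunits (right) in each library, EV in blue and PTX4-OE in red, numbered by replicate. PTX4-OE 1 is lowest on the left at 2.51% and highest on the right at 0.846%.

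Levels per length need care for the shortest genes. The length that the deposited FPKM (fragments scaled for length and depth) imply is the count divided by the FPKM and the depth, and for 10 of the 13 MT mRNAs it was 286 bases shorter than the annotated gene. MT-ATP8, a gene of 207 bases, was scaled as if it were 1.89 bases long, MT-ND4L (297 bases) as 28.7 and MT-ND3 (346 bases) as 65.0. On the TPM scale, MT-ATP8 therefore had the highest EV level of all members, 15733 ± 2793 (SD, n = 3), although it held only 365 to 1058 counts per library. MT-ATP6, from the same transcript, had 10698 ± 1422 TPM (SD, n = 3) in EV and 55400 to 122408 counts. Per kilobase of annotated gene, MT-ATP6 had 42.9 times the normalised CPM (counts scaled to the library size) of MT-ATP8, and MT-ND4 7.50 times that of MT-ND4L. TPM values of MT-ATP8, MT-ND4L and MT-ND3 are for this reason not set against those of other genes.

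**Figure D2:**
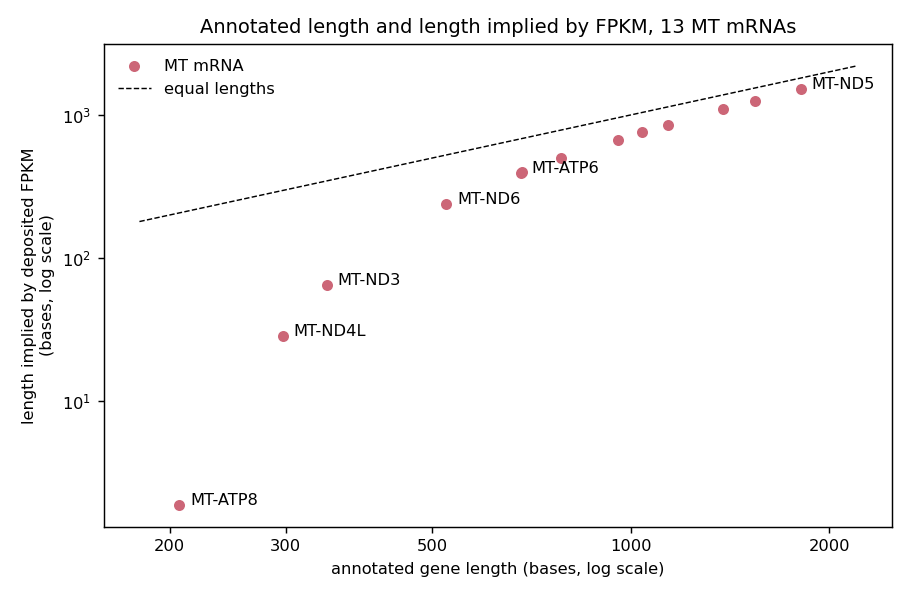
Annotated length (x, bases, log scale) against the length implied by the deposited FPKM (y, bases, log scale) for the 13 MT mRNAs; the dashed line marks equal lengths. The points run 286 bases under the line for the longer genes, and MT-ATP8 falls to 1.89 bases.

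Among the other 10 MT mRNAs, the EV level ran from 2263 ± 179 TPM (SD, n = 3) for MT-ND5, a proton-pumping membrane subunit of complex I, to 13737 ± 1132 for MT-CO2, the complex IV subunit that accepts electrons from cytochrome c. The other core subunits of complex IV, MT-CO1 at 12043 ± 1583 and MT-CO3 at 11407 ± 1080 TPM (SD, n = 3 each), did not differ from each other beyond that spread. MT-ND6, the 1 mRNA read from the other strand (chromosome M, 14149 to 14673, minus strand), had 3550 ± 199 TPM (SD, n = 3). The sources do not state whether counting used strand, so reads from the opposite strand cannot be separated from those of MT-ND6.

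Nuclear members were far lower and spread widely within each complex. Of those named here, NDUFA9, SDHA, SDHD, UQCRFS1 and ATP5F1E had fractional counts, so their levels and the spans that rest on them are uncertain. Implied lengths of nuclear members went down to 136 bases, so TPM ranks of the shortest also need care. In complex I the highest EV level was that of NDUFB9, a supernumerary subunit, at 453 ± 48.3 TPM (SD, n = 3), and the lowest that of NDUFA9 at 18.1 ± 3.45, a span of 25.0-fold. Complex II had the narrowest span, 2.18-fold, from SDHD, a membrane anchor, at 67.4 ± 10.8 TPM to SDHA, the flavoprotein, at 147 ± 33.5 (SD, n = 3 each). In complex III, UQCRH, the hinge protein, had 764 ± 98.4 TPM and UQCRFS1, the Rieske iron-sulfur protein, 40.4 ± 4.61 (SD, n = 3 each). In complex IV the range ran from NDUFA4, once counted with complex I, at 57.3 ± 14.8 to COX7A2 at 1189 ± 239 TPM (SD, n = 3 each). In complex V it ran from ATP5F1E, the epsilon subunit, at 25.97 ± 2.29 to ATP5MC2 at 941 ± 36.2 TPM (SD, n = 3 each). ATP5MC2 is 1 of the 3 genes for the same c-ring protein, and its relatives ATP5MC1 and ATP5MC3 stood at 275 ± 92.5 and 273 ± 55.0 TPM (SD, n = 3 each).

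The comparison of PTX4-OE with EV asked which transcripts change with PTX4 overexpression. All 13 MT mRNAs had a lower mean in PTX4-OE, by a median log2 fold change of -0.29, while the 46 nuclear members stood at a median of 0.017 and the 17625 genes tested at 0.0077. None of the 59 members passed edgeR's quasi-likelihood test at an adjusted p under 0.05 without a replicate block, and 0 had an unadjusted p under 0.05. Among all genes 0.00567% passed, namely PTX4 alone, and DESeq2 called 0 members too. With libraries of the same replicate number compared as a block, MT-ND1 was called lower and the other 58 members were not. Of all genes 0.267% were called in that fit, 0.238% lower and 0.0284% higher. At an unadjusted p under 0.05 in that fit, 10 of the 13 MT mRNAs were lower, and 0 nuclear members passed in either direction. Of the 17625 genes tested 1550 passed at that threshold, 781 lower and 769 higher.

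MT-ND1 (ENSG00000198888.2, chromosome M, 3307 to 4262, plus strand, GRCh38, a single exon) encodes the complex I subunit beside the ubiquinone site. Its normalised CPM was 2890, 3736 and 3706 in EV, and PTX4-OE had 1521, 2979 and 3013. PTX4-OE was lower in each pair, and the groups overlapped because EV replicate 1 lay below PTX4-OE replicates 2 and 3. The log2 fold change with the block was -0.52 (SE 0.098, edgeR adjusted p = 0.0385), with differences of -0.93, -0.33 and -0.30 in pairs 1, 2 and 3. Without the block it was -0.46 (SE 0.26, edgeR adjusted p = 1.00). Dropping pair 1, the blocked value was -0.31 and was called (edgeR adjusted p = 0.00341). Dropping pair 2, it was -0.61 and was not (edgeR adjusted p = 0.104). Dropping pair 3, it was -0.64 and was called (edgeR adjusted p = 6.53e-11), and 10 members, all MT mRNAs, were called lower in that fit. Over all genes 208 were called there.

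The size of the mitochondrial difference rested on PTX4-OE replicate 1. Each of the 13 MT mRNAs had its lowest normalised CPM in that library. In pair 1 the differences ran from -1.04 for MT-ND5 to -0.36 for MT-ND3, a small membrane subunit of complex I. Median differences were -0.83 in pair 1, -0.067 in pair 2 and -0.17 in pair 3, and 13, 9 and 13 of the 13 were negative. Without PTX4-OE replicate 1 and without a block the median log2 fold change was -0.018. Dropping pair 1 from the blocked fit gave -0.14. Across all 3 pairs 9 of the 13 were lower, where 14.2% of all genes tested were. For 0 of the 13 were all PTX4-OE values under all EV values, where 2.05% of all genes tested had such a separation.

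In complex I, MT-ND4L went from 275, 267 and 288 normalised CPM in EV to 153, 351 and 227 in PTX4-OE, so that pair 2 went the other way from pairs 1 and 3 (0.39 against -0.85 and -0.34). MT-ND3 had 367, 340 and 382 CPM in EV and 287, 403 and 377 in PTX4-OE. Apart from PTX4-OE replicate 1, the 2 constructs overlapped for both genes. MT-ND4, a proton-pumping subunit, had 9384, 11343 and 8176 CPM in EV and 4969, 9436 and 7216 in PTX4-OE. Its log2 fold change with the block was -0.45 (SE 0.11, edgeR adjusted p = 0.144), lower in all 3 pairs.

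MT-CYB, the cytochrome b of complex III and its only mitochondrially encoded subunit, had 2134, 2881 and 3695 CPM in EV and 1206, 2749 and 3278 in PTX4-OE, and its blocked log2 fold change was -0.35 (SE 0.11, edgeR adjusted p = 0.278). In complex IV, MT-CO1, the catalytic subunit with the copper and haem centres, had 11499, 13939 and 10334 CPM in EV and 7124, 12654 and 9401 in PTX4-OE. MT-CO3 had 4281, 4957 and 4114 against 3197, 4858 and 4080, with differences in pairs 2 and 3 of only -0.029 and -0.012. For complex V, MT-ATP6, the subunit that forms the proton channel with the c-ring, had 2852, 3523 and 3521 CPM against 1541, 3134 and 3134. Thus the low values in PTX4-OE replicate 1 were present in all 4 complexes with mitochondrial subunits. The mitochondrial rRNAs were also lowest in that library: MT-RNR2 went from 4402, 5699 and 6421 to 2661, 5216 and 5525 CPM, and MT-RNR1 from 345, 353 and 446 to 274, 349 and 404.

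**Figure D3:**
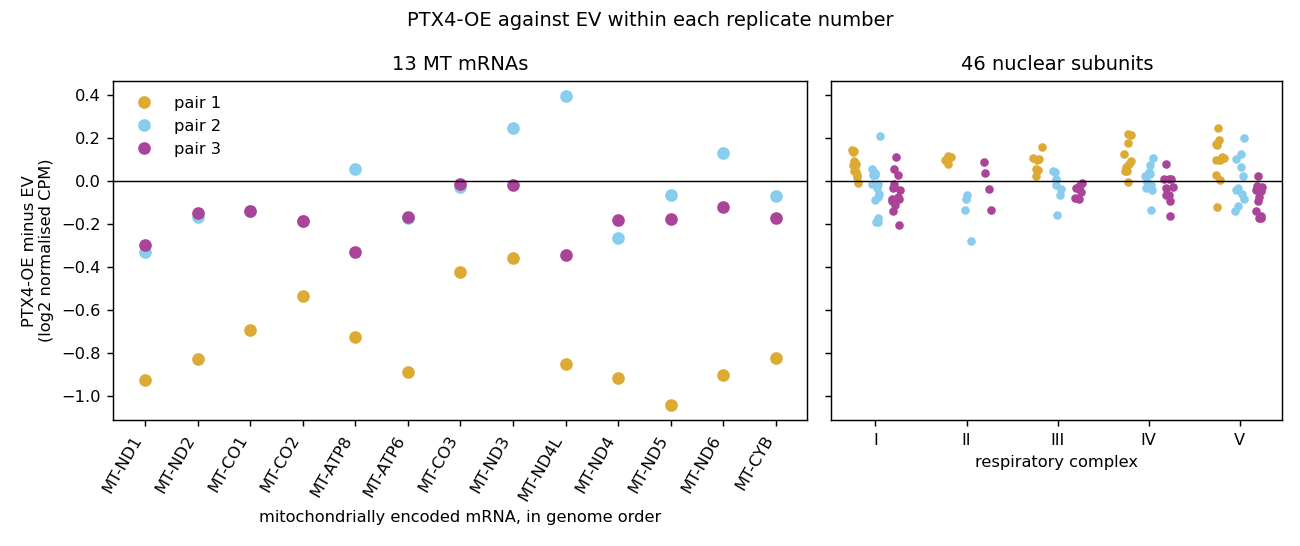
Difference of PTX4-OE from EV (y, log2 normalised CPM) within each replicate number, for the 13 MT mRNAs in genome order (left) and the 46 nuclear subunits by complex (right); colours mark the pairs. On the left all 13 points of pair 1 lie between -1.04 and -0.36, and on the right all points of pair 1 lie between -0.12 and 0.25.

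Nuclear subunits showed no call in either direction with or without the block. Of the 46, 29 had a positive and 17 a negative log2 fold change, all between -0.063 (NDUFB3) and 0.12 (ATP5PF). In pair 1, where the MT mRNAs were low, 43 of the 46 were higher in PTX4-OE, with a median of 0.095. In pairs 2 and 3 the medians were -0.024 and -0.042, and 28 and 36 were lower. In all 3 pairs 4 were higher and 1 was lower, where 16.4% and 14.2% of all genes tested were. For 0 of the 46 did the constructs separate without overlap, higher or lower, as 2.08% and 2.05% of all genes did. Their 95% confidence intervals lay within a 2-fold change in either direction for 46 of 46 members with and without the block, but for 8 of 13 MT mRNAs without it and 13 of 13 with it.

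By complex, the medians without the block were 0.00034 for complex I, -0.010 for complex II, 0.034 for complex III, 0.039 for complex IV and 0.024 for complex V. In complex I the extremes were NDUFA1 at 0.097 (SE 0.19) and NDUFB3 at -0.063 (SE 0.28), both accessory membrane subunits. In complex II, SDHA was at 0.041 (SE 0.25) and SDHD at -0.053 (SE 0.19). In complex III, CYC1, the cytochrome c1 haem protein, was at 0.053 (SE 0.25) and UQCRFS1 at -0.059 (SE 0.16). Complex IV ran from COX6B1, at -0.050 (SE 0.23), to COX8A, at 0.095 (SE 0.23). Complex V ran from ATP5MC2, at -0.051 (SE 0.093), to ATP5PF, a subunit of the stalk, at 0.12 (SE 0.24). None of these 10 extremes exceeded its standard error. The sign of the nuclear median depended on single libraries. It was negative without PTX4-OE replicate 1 (-0.13), EV replicate 3 (-0.099) or PTX4-OE replicate 2 (-0.0062), and 0.11 without EV replicate 1 and 0.16 without PTX4-OE replicate 3. On the log2(FPKM + 1) scale it was -0.0025.

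Counts of the MT mRNAs per count of the nuclear members combined both sets in each library. The ratio was 5.32, 7.0 and 7.41 in EV replicates 1, 2 and 3 and 2.96, 6.41 and 6.90 in PTX4-OE replicates 1, 2 and 3, or 6.58 ± 1.10 against 5.42 ± 2.15 (SD, n = 3 each). It was lower in PTX4-OE in each pair, and the groups overlapped. By complex the ratio was 17.5 ± 3.20 in EV and 13.96 ± 6.10 in PTX4-OE for complex I, 2.11 ± 0.825 and 1.79 ± 1.02 for complex III, 16.9 ± 2.72 and 14.3 ± 5.03 for complex IV, and 1.12 ± 0.245 and 0.914 ± 0.427 for complex V (SD, n = 3 each). In each of the 4 complexes the ratio was lower in PTX4-OE in all 3 pairs, for complex I at 6.99, 16.6 and 18.3 against 13.8, 18.7 and 19.9 in EV. The differences between the means were smaller than the SD over PTX4-OE libraries, which includes the differences between replicate numbers, and were not tested.

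The replicate number separated the members far more than the construct did. Of the 59, 54 were called in edgeR's test of the replicate-number terms with construct in the fit, where 51.6% of all genes were called. That test takes both terms together, so a call can rest on any difference among the numbers. Its adjusted p is not that of number 3 minus number 1 alone. The nuclear and mitochondrial members went opposite ways. Of 46 nuclear members 42 were called, all lower in number 3 than in number 1, where 27.4% of all genes were called in that direction. Of 13 MT mRNAs 12 were called, all higher in number 3 than in number 1, where 24.1% of all genes were. Each number holds 1 library of each construct, and what it stands for (a passage, a day or another factor) is not stated, so the test describes these libraries.

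**Figure D4:**
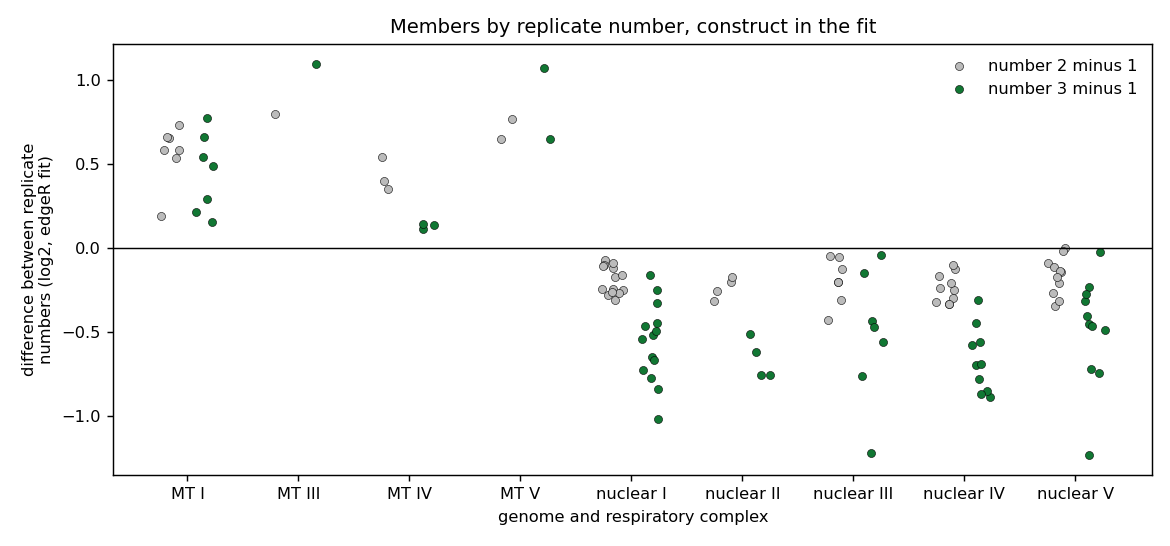
Differences between replicate numbers (y, log2, from the edgeR fit with construct) for each member, by genome and complex: number 2 minus 1 in grey and number 3 minus 1 in green. All 46 nuclear members lie below 0 for number 3 minus 1, down to -1.24, and all 13 MT mRNAs lie above it, up to 1.10.

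In the nuclear set the median difference was -0.55 between number 3 and number 1 and -0.20 between number 2 and number 1, against 0.026 and -0.019 over all genes tested. Between numbers 3 and 1 it was negative for 45 of 46 members within EV (median -0.50) and for 46 of 46 within PTX4-OE (median -0.62). In both constructs at once, 39 of 46 were highest in replicate 1 and lowest in replicate 3, a pattern held by 24.6% of all genes tested. The level of a gene moved with this difference. Among the 4406 genes with the highest mean CPM, which held 39 of the 46 members, the median of number 3 minus number 1 was -0.20, and among the 4407 with the lowest it was 0.50. Among the 4407 genes with the shortest implied lengths, which held 32 of the 46, it was 0.021. The part of either in the members' difference was not tested.

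The 3 nuclear members with the largest differences between numbers 3 and 1 belong to complexes V, III and I. ATP5MC1 (ENSG00000159199.14, chromosome 17, 48892765 to 48895871, plus strand, GRCh38), which encodes the c-ring protein of complex V, had 68.7, 60.3 and 33.0 normalised CPM in EV replicates 1, 2 and 3 and 77.5, 54.8 and 29.3 in PTX4-OE. Its difference between numbers 3 and 1 was -1.24 (SE 0.081, edgeR adjusted p = 5.71e-08). The adjusted p-values in this paragraph are from the test of both replicate-number terms together, not of this difference alone. UQCRQ (ENSG00000164405.11, chromosome 5, 132866630 to 132868847, plus strand), a small subunit of complex III, had 61.7, 48.1 and 27.6 CPM in EV and 66.4, 47.0 and 27.2 in PTX4-OE, a difference of -1.22 (SE 0.069, edgeR adjusted p = 2.10e-08). NDUFA2 in complex I followed at -1.02 (SE 0.075, edgeR adjusted p = 1.41e-07). For all 3 genes both replicate 3 libraries lay below the other 4.

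By complex, the median difference between numbers 3 and 1 was -0.53 for complex I (13 of 14 called), -0.69 for complex II (4 of 4), -0.47 for complex III (5 of 7), -0.70 for complex IV (10 of 10) and -0.45 for complex V (10 of 11). The 4 members not called were NDUFB5 at -0.16 (SE 0.060, edgeR adjusted p = 0.0889), UQCRC2 at -0.15 (SE 0.061, edgeR adjusted p = 0.119), UQCRB at -0.041 (SE 0.061, edgeR adjusted p = 0.775) and ATP5MC2 at -0.025 (SE 0.067, edgeR adjusted p = 0.931). The adjusted p-values are again those of both terms together. ATP5MC2 had 266, 246 and 263 CPM in EV and 245, 264 and 239 in PTX4-OE. These values overlapped across numbers, whereas ATP5MC1, a gene for the same mature protein, was lower in replicate 3 than in the other libraries of both constructs.

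For the MT mRNAs the difference between numbers 3 and 1 ran from 0.11 for MT-CO1 to 1.10 for MT-CYB, with a median of 0.49. Between numbers 2 and 1 the median was higher, at 0.59, and the test covers both differences. MT-ND3 alone was not called (0.22, SE 0.097, edgeR adjusted p = 0.140 for both terms together). The difference was larger within PTX4-OE, whose replicate 1 was low. Within EV the median of replicate 3 minus replicate 1 was 0.13 and 4 of 13 were negative, and within PTX4-OE the median was 0.91 and 0 were negative. For replicate 2 minus replicate 1 the medians were 0.27 in EV, with 2 negative, and 1.02 in PTX4-OE, with 0 negative. Without PTX4-OE replicate 1, so that number 1 rested on EV replicate 1 alone, 10 of the 13 were called. Without PTX4-OE replicate 2, 9 were. DESeq2 called 7 and limma on log2(TPM + 1) called 3, against 42 and 39 of the nuclear members. Over all 17625 genes tested they called 6505 and 7425, so limma's share of the MT mRNAs was below that of all genes.

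The make-up of the mitochondrial mRNA pool also followed the replicate number. MT-CYB made up 4.82%, 5.37% and 7.98% of the counts of the 13 in EV replicates 1, 2 and 3 and 4.58%, 5.71% and 7.90% in PTX4-OE. MT-ND2, a complex I subunit, made up 7.54%, 8.32% and 9.86% in EV and 7.16%, 8.28% and 9.92% in PTX4-OE. MT-CO1 went the other way, with 25.95%, 25.97% and 22.3% in EV and 27.1%, 26.3% and 22.7% in PTX4-OE. For these 3 genes, replicate 3 stood apart from replicates 1 and 2 in both constructs. For several other genes the share in PTX4-OE replicate 1 lay outside that in the other 5 libraries. It was higher for MT-CO3, at 12.2% against 8.89% to 10.1%, for MT-CO2, at 10.8% against 8.54% to 9.30%, and for MT-ND3, at 1.09% against 0.634% to 0.908%. It was lower for MT-ND5, at 4.64% against 5.37% to 5.95%.

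**Figure D5:**
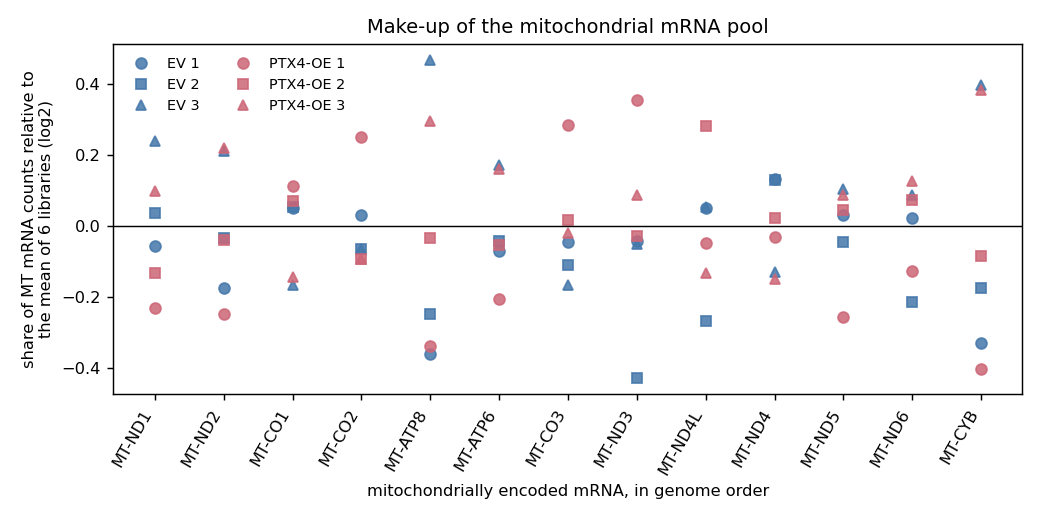
Share of each MT mRNA in the counts of all 13, relative to its mean over the 6 libraries (y, log2), in genome order; EV in blue, PTX4-OE in red, with circles, squares and triangles for replicates 1, 2 and 3. Triangles of both colours are above 0 for MT-ND1, MT-ND2, MT-ATP8, MT-ATP6, MT-ND5, MT-ND6 and MT-CYB and below 0 for MT-CO1, MT-CO2, MT-CO3 and MT-ND4. The mean includes PTX4-OE 1, whose share was apart from the others for MT-CO2, MT-CO3 and MT-ND5. For MT-CO2 replicates 2 and 3 were alike, at 8.70% and 8.71% in EV and 8.54% and 8.54% in PTX4-OE.

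Promoters of the nuclear members were searched for the motifs of factors known to drive respiratory genes, since these members moved together across replicate numbers. RefSeq promoter sequence (GRCh38.p14, 250 bases before to 50 after a start) was matched for 36 of the 46. The palindromic site of NRF1, nuclear respiratory factor 1, whose letters are the first capitals in the SDHD line, was present on either strand for 2 of the 36 (5.56%), against 1.52% of 27305 genes with such a sequence. CCGGAAGT, bound by ETS proteins such as GABPA, was present for 8 (22.2% against 4.95%), and AAGATGGC, bound by YY1, for 8 (22.2% against 3.52%). The 27305 genes were not limited to those expressed here, whereas all members were expressed. Shares among expressed genes alone were not computed. The windows below show the NRF1 and ETS letters at SDHD (chr11:112086743-112086822, plus strand) and the ETS letters at UQCRQ (chr5:132866568-132866615, plus strand) in capitals, those of ETS at SDHD on the opposite strand.
SDHD: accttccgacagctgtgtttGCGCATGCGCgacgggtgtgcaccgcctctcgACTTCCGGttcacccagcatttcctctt
UQCRQ: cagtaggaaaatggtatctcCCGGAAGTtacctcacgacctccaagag

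The UQCRQ window was chosen for its replicate-number difference, the largest among the members holding the ETS letters and also the largest in complex III. Because of that choice, the size of its difference gives no information about the motif. A link between the motifs and the replicate-number differences was not tested. ATP5MC1, with the largest difference of all, was not among the members found to hold any of the 3 motifs. A promoter was not matched for every member. A match is a description of the letters, not of binding.

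Other genes of the pathway were examined in both comparisons. Of 33 tested structural subunits outside the 46 (36 listed), 0 were called with PTX4-OE with or without the block, and the median log2 fold change was 0.021. ATP5MF of complex V was the highest at 0.17 (SE 0.33) and UQCR10 of complex III the lowest at -0.060 (SE 0.33). For replicate numbers 30 of the 33 were called, all lower in number 3 than in number 1, beside 51.6% of all genes called and 27.4% called lower in number 3. Of 46 assembly factors 0 were called with PTX4-OE (median 0.0095), between COA5 at -0.16 (SE 0.13) and ECSIT at 0.10 (SE 0.16). For replicate numbers 37 were, 35 of them lower in number 3, beside the same 51.6% and 27.4% of all genes.

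Genes that make and keep mitochondrial RNA gave no call by construct. Of 17 genes for transcription and upkeep of mitochondrial DNA, among them POLRMT, the polymerase, and TFAM, which packages the DNA, 0 were called in PTX4-OE (median -0.0031, from MTERF2 at -0.12, SE 0.17, to the replicative polymerase POLG at 0.087, SE 0.13). Of 19 genes for processing and decay of mitochondrial RNA 0 were called (median -0.0027, from FASTKD2 at -0.14, SE 0.17, to the exonuclease REXO2 at 0.14, SE 0.17). Of 25 mitochondrial translation genes 0 were called (median 0.013, from the ribosome recycling factor MRRF at -0.18, SE 0.11, to TACO1, an activator of MT-CO1 translation, at 0.10, SE 0.21). With the block, 0 genes of these 3 lists were called either. In replicate numbers 9 of 17, 17 of 19 and 19 of 25 were called, beside 51.6% of all genes, so that the 9 of 17 lay near the background. Of them 8, 17 and 19 were lower in number 3, beside 27.4% of all genes.

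Nuclear regulators and other mitochondrial proteins were likewise without a call by construct. Without the block, all 10 regulators tested, such as NRF1, GABPA, YY1 and the coactivator PPARGC1A, had a positive log2 fold change. The median was 0.055, and 9339 of the 17625 genes tested were positive. PPARGC1A was the highest at 0.37 (SE 0.49) but was near the detection limit at 0.273 to 0.922 normalised CPM. MYC was the lowest at 0.0039 (SE 0.21), and with the block it was at -0.0073 (SE 0.053). Among 25 other mitochondrial proteins, such as citrate synthase and the import receptors, the median was 0.019, from TOMM20 at -0.036 (SE 0.088) to OGDH, a subunit of the oxoglutarate dehydrogenase complex, at 0.14 (SE 0.22). For replicate numbers 21 of these 25 were called, all lower in number 3 than in number 1, beside 51.6% of all genes called and 27.4% called lower. Of the 10 regulators 6 were called, 5 lower and 1 higher in number 3, a share near that of all genes.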

How the data were processed

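RNA-seq of 6 THP-1 libraries was analysed from whole-series tables of expected counts, TPM and FPKM. Per the submitters' processing notes, the authors used STAR and featureCounts with GRCh38, and FastQC 0.11.5 for read quality. Other settings, the annotation release and the use of strand are not stated. The deposited expected counts were fractional for 7.94% of values and were rounded before testing. The deposited TPM and FPKM were used as the authors gave them, for levels, implied lengths and alternatives. Gene names came from GENCODE 44 for 61430 of 78686 rows, and 33 pseudoautosomal pairs were summed.

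Genes were filtered with filterByExpr (17625 kept, all 59 members among them), scaled by TMM and tested with edgeR 4.0.16 (quasi-likelihood, Benjamini-Hochberg adjustment over all genes tested, threshold 0.05) in R 4.3.3. DESeq2 1.42.0 and limma 3.58.1 served as alternatives. The edgeR fits alone were tried on simulated data, with the spread of the blocked fit. For the constructs, no differences between replicate numbers were simulated. The biological coefficient of variation was 0.0551 with the block and 0.217 without it. The simulation therefore cannot tell how the unblocked test does at the spread of these data. The main test had no replicate block. Deviations from the group means correlated between same-numbered libraries at 0.632, 0.130 and 0.699, all over 0.1, so the numbers were taken as pairs from the data. Unlike numbers ran from -0.643 to 0.117, the last for EV replicate 2 with PTX4-OE replicate 1, so replicate 2 was barely set apart. The labels give every library batch 1 and do not say what a number shares. p-values measure the spread between these samples, which may be technical.

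Named genes were all 13 MT mRNAs, the nuclear members called or with the highest and lowest log2 fold change in each complex, the extremes of each associated list, and the highest and lowest EV level per complex; of the nuclear members called by replicate number only the largest are given singly, and others were named after their values were seen. The members and lists were chosen with earlier results of these data known. Sequence came from GRCh38 and RefSeq.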

Additional observations from a re-analysis of the deposited data

How the results depend on the processing

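Leaving out single libraries, or the numbered pair in the blocked fit, moved the comparison of constructs most. The members called lower numbered 0 without a replicate block and 1 with it, and 0 to 10 when libraries or pairs were left out, the 10 in the blocked fit without replicate 3 (1 without replicate 1 and 1 without replicate 2). No alternative called a member higher. Over all genes the 1 call became 3 with DESeq2, 2 with no filter, 3 on log2(TPM + 0.1) and 47 with the replicate block, and ran from 1 to 208 with libraries or pairs left out (blocked: 88, 23 and 208 without pairs 1, 2 and 3). The median log2 fold change of the 13 MT mRNAs stayed negative, from -0.50 to -0.018 with libraries or pairs left out, the last without PTX4-OE replicate 1. The nuclear median ran from -0.13 to 0.16, and by complex from -0.14 to 0.13 (I), -0.18 to 0.16 (II), -0.10 to 0.17 (III), -0.15 to 0.21 (IV) and -0.093 to 0.13 (V). For replicate numbers, the MT mRNAs called fell from 12 to 7 with DESeq2, 3 on log2(TPM + 1), 4 on log2(FPKM + 1) and 3 on log2(TPM + 0.1), and ran from 9 to 13 with a library left out. Over all genes the 9090 calls became 6505 with DESeq2, 7425 on log2(TPM + 1), 7109 on log2(FPKM + 1) and 7289 on log2(TPM + 0.1). The cause of these changes was not tested. Nuclear calls stayed between 38 and 43, all members called between 50 and 56 with a library left out, and all genes called between 7402 and 8884. A number that lost a library rested on 1, assumed to vary like the rest. At 365 to 1058 counts, MT-ATP8 was the least precisely counted MT mRNA.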
